A study of Mus musculus with 12 samples.

Results

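The genes described here are 8 genes that act in the fusion of osteoclast precursors. They were chosen by symbol and are Dcstamp, Ocstamp, Atp6v0d2, Siglec15, Cd9, Cd47, Sirpa and Adam8. All 8 were found among the 55401 gene identifiers of the marrow culture count tables, and all 8 were among the 14030 genes with enough counts to be tested. The study deleted Impdh2, the gene of an enzyme of guanine nucleotide synthesis, in mouse limb mesenchyme (Prx-cKO) or in myeloid cells (LysM-cKO) and sequenced RNA from embryonic forelimbs and from osteoclast cultures.

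The culture libraries came from bone marrow of Wt and Impdh2 LysM-cKO mice, with 2 libraries for each of 4 groups: Wt R0D3, Wt R40D3, LysM-cKO R0D3 and LysM-cKO R40D3. All groups shared 3 days of marrow culture in medium with L929 cell supernatant as the source of M-CSF, at the equivalent of 20 ng/ml. The protocol gives 40 ng/ml RANKL for the differentiation step, but the labels do not spell out R0D3 and R40D3, so these names are used as they stand. Every culture sample carries the same cell type and treatment label. The ages of the mice, the alleles that the Wt mice carry and whether a replicate number marks a separate mouse are not given in the sources used here, so the p-values may measure only technical spread. LysM-cKO is a myeloid deletion by the study's own account, and a culture of whole marrow also holds cells outside that lineage.

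Osteoclasts become multinucleated when macrophage-like precursors fuse under M-CSF and RANKL. The multipass membrane proteins DC-STAMP and OC-STAMP, encoded by Dcstamp and Ocstamp, are required for that fusion in the mouse, and Atp6v0d2, a proton pump subunit, also takes part. Siglec-15, the tetraspanin CD9, the CD47 and SIRPα receptor pair and the metalloprotease-disintegrin ADAM8 act at the surface of the fusing cells.

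Atp6v0d2 has a broadly expressed paralogue, Atp6v0d1, so a first question is whether short reads can be assigned to one or the other. In a global alignment of the GENCODE coding sequences the paralogues were 66.4% identical, with a longest identical run of 17 bases. None of the 50-base stretches of Atp6v0d2 transcripts occurred in a transcript of another gene. The same was true of Dcstamp, Siglec15, Sirpa and Adam8, while 2.80% of the stretches of Ocstamp, 5.67% of those of Cd9 and 0.615% of those of Cd47 were shared. Transcripts were compared in their own direction only, so these figures leave out sharing with antisense transcripts. Exons of Cd9 overlap the antisense gene Gm26728 and exons of Adam8 overlap Gm16201. Whether the counting used strand is not given in the sources used here, so reads of these pairs cannot be told apart.

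Cd9 and Adam8 were also the members called lower at R40D3 in both genotypes, as described below, and Sirpa was lower too. RefSeq promoter entries (GRCm38.p6) were at hand for 3 of the 8 members, and those of Cd9 and Adam8 are given here. Each is shown from 250 to 51 bases before the RefSeq start, on the gene's own strand, with matches on either strand to GGAAA (the NFAT core), TGANTCA (AP-1) and CANNTG (E-box) in capitals.

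Cd9 (chr6:125494811-125495010, minus strand): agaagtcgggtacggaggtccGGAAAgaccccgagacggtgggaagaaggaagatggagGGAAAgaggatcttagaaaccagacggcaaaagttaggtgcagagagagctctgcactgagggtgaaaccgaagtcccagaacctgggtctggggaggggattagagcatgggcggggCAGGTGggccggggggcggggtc

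Adam8 (chr7:139992613-139992812, minus strand): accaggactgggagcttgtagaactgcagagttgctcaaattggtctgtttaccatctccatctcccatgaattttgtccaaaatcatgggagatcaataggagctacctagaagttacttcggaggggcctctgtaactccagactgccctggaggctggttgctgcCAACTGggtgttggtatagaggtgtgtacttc

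The Cd9 window held 2 matches to GGAAA and 1 to CANNTG, and the Adam8 window held 1 match to CANNTG. Of the 27025 promoter windows of the same length, 48.6% held GGAAA, 5.74% held TGANTCA and 58.9% held CANNTG, so none of these matches sets the windows apart from promoters in general.

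The culture libraries held between 16009146 and 19221865 counts each. Levels are given below in CPM, a gene's counts relative to its library's total after scaling by the trimmed mean of M values. Impdh2 itself was at 22.3 to 28.2 CPM in the 4 Wt culture libraries and at 7.03 to 8.38 CPM in the 4 LysM-cKO libraries, which matches the labels and leaves part of the signal. The osteoclast marker Acp5 was at 12.4 to 15.8 CPM in the 4 R0D3 libraries, and Calcr, the calcitonin receptor gene, had no count in any of them. In the R40D3 libraries Calcr reached 52.4 to 122 CPM. Acp5 and Calcr were thus low or at 0 in the R0D3 libraries, which carry the osteoclast label too. This did not hold for every osteoclast gene. The 15 examined further below summed to between 1679 and 1802 CPM in the R0D3 libraries, where Atp6v1b2 alone was at 717 to 853 CPM. The T cell marker Cd3e was at or near 0 in all 8. Trac, also a T cell marker, was at 0 to 0.124 CPM at R0D3 and at 0.616 to 2.08 CPM at R40D3.

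The 8 genes divided by their behaviour between R0D3 and R40D3. The fusion proteins Dcstamp and Ocstamp, the pump subunit Atp6v0d2 and the lectin Siglec15 were higher in R40D3 than in R0D3 cultures of both genotypes. Cd9 and Adam8 were lower in both, while Cd47 stayed within 0.19 on the log2 scale and Sirpa was lower by a margin that passed only some of the tests. In Wt cultures 6 of the 8 passed the edgeR quasi-likelihood test at an adjusted p under 0.05, 4 higher and 2 lower, where 16.9% of all genes tested were called, 11.4% higher and 5.52% lower. In LysM-cKO cultures 6 of 8 also passed, again 4 higher and 2 lower, against 10.1% of all genes, 6.99% higher and 3.15% lower. The 2 groups did not overlap for 5 higher and 3 lower members in each genotype, a background of 32.9% higher and 29.2% lower over all genes in Wt and of 27.3% and 22.5% in LysM-cKO. These are bulk cultures, in which fewer cells of a type and less RNA per cell cannot be told apart.

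**Figure D1:**
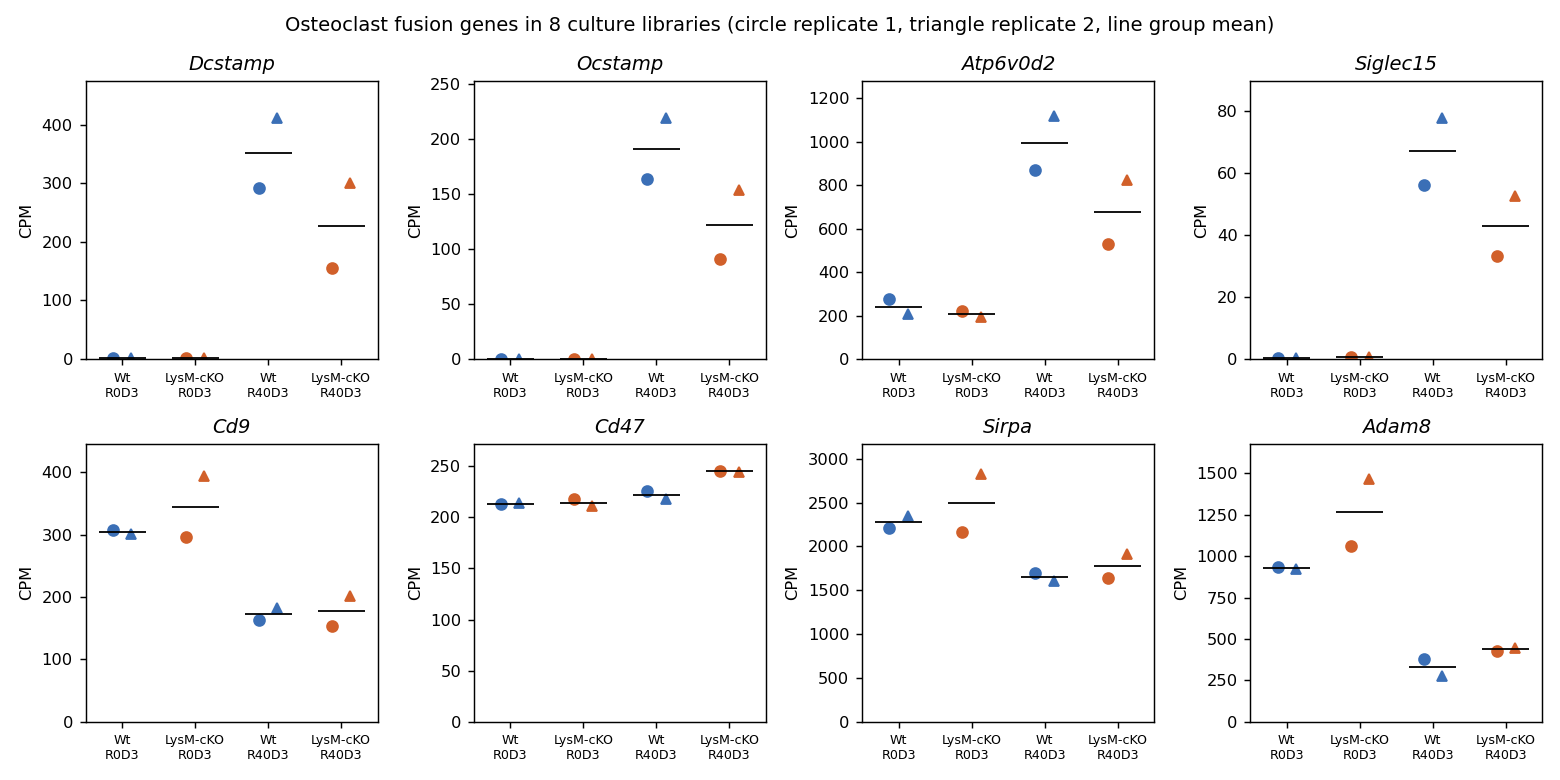
Level of each fusion gene in CPM (vertical axes, linear and starting at 0) in the 4 culture groups (horizontal axes). Circles are replicate 1, triangles replicate 2 and lines group means. Dcstamp, Ocstamp and Siglec15 sit near 0 at R0D3 and between 33.2 and 411 CPM at R40D3, and Cd47 stays between 211 and 246 CPM throughout.

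Dcstamp (ENSMUSG00000022303) lies on chromosome 15 from 39745930 to 39760938 on GRCm38. Its level was 2.27 and 0.995 CPM in the Wt R0D3 replicates 1 and 2, and 293 and 411 CPM in the Wt R40D3 ones. In LysM-cKO cultures it was 0.920 and 0.970 CPM at R0D3 and 155 and 300 CPM at R40D3. The R0D3 and R40D3 groups did not overlap in either genotype, while the 2 genotypes overlapped at R40D3, where LysM-cKO replicate 2 exceeded Wt replicate 1. The log2 fold change from R0D3 to R40D3 was 7.73 (SE 0.48, edgeR adjusted p = 0.00021) in Wt and 7.90 (SE 0.51, adjusted p = 0.00038) in LysM-cKO. Without Wt R0D3 replicate 1, which held 39 of the 55 Wt R0D3 counts, the Wt value was 8.46. Without LysM-cKO R40D3 replicate 2, the higher of that pair, the LysM-cKO value was 7.31, and both were still called.

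Ocstamp (ENSMUSG00000027670; chromosome 2, 165393760 to 165400405) encodes the partner protein of DC-STAMP in fusion. In Wt it was at 0.233 and 0 CPM at R0D3 and at 163 and 219 CPM at R40D3. In LysM-cKO it was at 0.0575 and 0.0606 CPM at R0D3 and at 90.7 and 154 CPM at R40D3. All 4 R40D3 libraries stood far above all 4 R0D3 libraries, and both LysM-cKO R40D3 values lay below both Wt ones. The gene had only 4 counts over both Wt R0D3 libraries, all in replicate 1, and 2 over both LysM-cKO ones. The depth-corrected ratio of summed counts, R40D3 over R0D3, was 1571 (95% interval for counting error only, 613 to 5769) in Wt and 2029 (561 to 16760) in LysM-cKO. The edgeR adjusted p was 2.4e-05 in Wt and 4.4e-05 in LysM-cKO. Without Wt R0D3 replicate 1 no Wt R0D3 count was left, so no fold can be given, and the gene was still called (adjusted p = 0.0017). Without Wt R0D3 replicate 2 the fitted log2 value moved from 10.55 to 9.64.

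Atp6v0d2 (ENSMUSG00000028238; chromosome 4, 19876841 to 19922605) encodes a d subunit of the membrane part of the vacuolar proton pump. Unlike the first pair it was well expressed at R0D3, at 275 and 205 CPM in Wt and 223 and 195 CPM in LysM-cKO. At R40D3 it reached 870 and 1117 CPM in Wt and 531 and 826 CPM in LysM-cKO. The rise separated the groups in both genotypes, and at R40D3 both LysM-cKO libraries were below both Wt libraries. The log2 fold change was 2.05 (SE 0.25, edgeR adjusted p = 0.0022) in Wt and 1.70 (SE 0.24, adjusted p = 0.0068) in LysM-cKO. Without LysM-cKO R0D3 replicate 2 the LysM-cKO value was 1.61 and its adjusted p 0.057.

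Siglec15 (ENSMUSG00000091055; chromosome 18, 78043614 to 78057395) encodes a sialic acid-binding lectin that signals through the adaptor DAP12. It was at 0.466 and 0.373 CPM in Wt R0D3 and at 56.3 and 77.8 CPM in Wt R40D3. The LysM-cKO values were 0.575 and 0.728 CPM at R0D3 and 33.2 and 52.6 CPM at R40D3. The LysM-cKO libraries were therefore the higher ones at R0D3 and the lower ones at R40D3, without overlap at either. The log2 fold change was 7.29 (SE 0.40, edgeR adjusted p = 0.00016) in Wt and 6.03 (SE 0.38, adjusted p = 0.00036) in LysM-cKO. The difference between these changes, -1.26 (SE 0.80), did not pass the test of the interaction (adjusted p = 1, and 0.811 with the replicate number as a block), and it rests on 14 and 22 counts at R0D3.

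Cd9 (ENSMUSG00000030342; chromosome 6, 125460266 to 125494791) encodes a tetraspanin, a membrane organiser found at sites of cell contact. It was at 308 and 301 CPM in Wt R0D3 and at 163 and 182 CPM in Wt R40D3. In LysM-cKO it was at 297 and 393 CPM at R0D3 and at 153 and 201 CPM at R40D3. Every R40D3 library was below every R0D3 library, and the genotypes overlapped at both. The log2 change was -0.82 (SE 0.17, edgeR adjusted p = 0.016) in Wt and -0.96 (SE 0.17, adjusted p = 0.014) in LysM-cKO. The call was lost in Wt without any 1 of its 4 libraries: the value was -0.80 without R0D3 replicate 1, -0.84 without R0D3 replicate 2, -0.77 without R40D3 replicate 1 and -0.94 without R40D3 replicate 2, with adjusted p between 0.073 and 0.096. In LysM-cKO it was lost without R0D3 replicate 2 (-0.74, adjusted p = 0.072) and when only its own 4 libraries were fitted (-0.95, adjusted p = 0.065).

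Adam8 (ENSMUSG00000025473; chromosome 7, 139978932 to 139992562) encodes a membrane-bound protease with an integrin-binding disintegrin domain. Its level was 935 and 920 CPM in Wt R0D3 and 381 and 278 CPM in Wt R40D3. In LysM-cKO it was 1062 and 1467 CPM at R0D3 and 430 and 448 CPM at R40D3. All R40D3 values were below all R0D3 values, and at both the LysM-cKO libraries were above the Wt ones without overlap. The log2 change was -1.49 (SE 0.19, edgeR adjusted p = 0.0029) in Wt and -1.53 (SE 0.19, adjusted p = 0.0044) in LysM-cKO.

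Cd47 and Sirpa encode a ligand and its inhibitory receptor, which meet between neighbouring myeloid cells. Cd47 (ENSMUSG00000055447; chromosome 16, 49800533 to 49915010) was at 213 and 214 CPM in Wt R0D3 and at 225 and 218 CPM in Wt R40D3. In LysM-cKO it was at 218 and 211 CPM at R0D3 and at 246 and 244 CPM at R40D3. The R40D3 values were the higher ones in both genotypes, by 0.05 (SE 0.07, edgeR adjusted p = 0.69) in Wt and 0.19 (SE 0.07, adjusted p = 0.16) in LysM-cKO on the log2 scale, and neither passed the test.

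Sirpa (ENSMUSG00000037902; chromosome 2, 129592835 to 129632228) was at 2210 and 2351 CPM in Wt R0D3 and at 1702 and 1607 CPM in Wt R40D3. In LysM-cKO it was at 2163 and 2823 CPM at R0D3 and at 1644 and 1918 CPM at R40D3. The R40D3 libraries were lower than the R0D3 ones in each genotype without overlap. The log2 differences, -0.46 (SE 0.16) in Wt and -0.48 (SE 0.16) in LysM-cKO, did not pass the edgeR test (adjusted p = 0.103 and 0.12). With the replicate number as a block both passed (adjusted p = 0.024 and 0.026), in fits that called 28.3% and 21.3% of all genes. With DESeq2 they passed too (adjusted p = 0.015 and 0.014). DESeq2 was run on every gene with a count and called 2283 genes in Wt and 1592 in LysM-cKO. These numbers equal 16.3% and 11.3% of the 14030 genes that edgeR tested. The ratio of Sirpa to Cd47 in CPM lay between 9.94 and 13.4 in the R0D3 libraries and between 6.70 and 7.85 in the R40D3 ones.

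**Figure D2:**
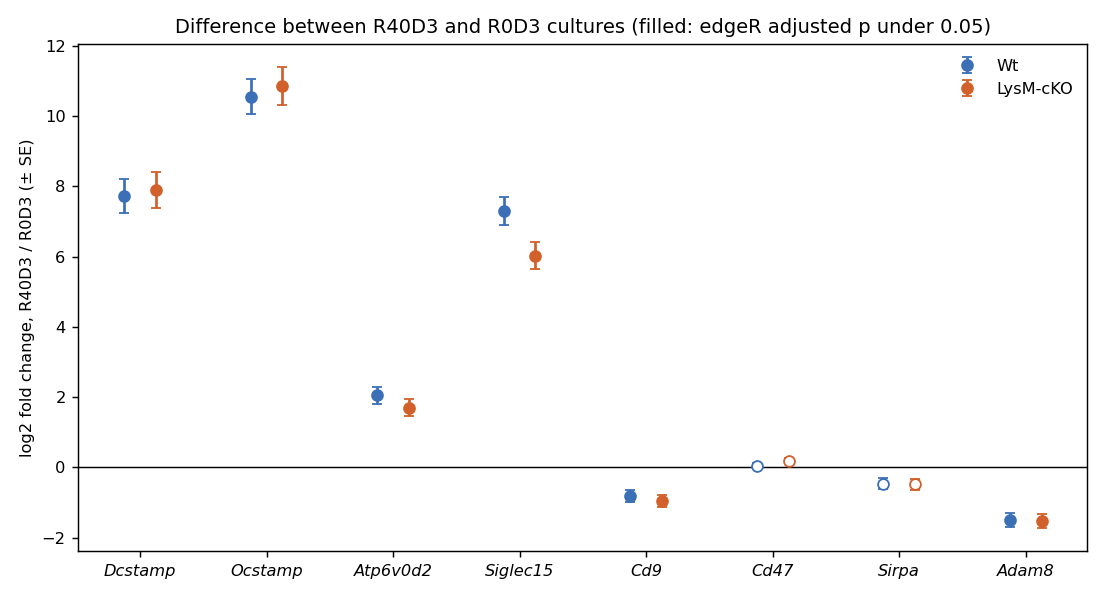
Log2 fold change of each fusion gene from R0D3 to R40D3 (vertical axis) in Wt (blue) and LysM-cKO (orange) cultures. Bars are standard errors computed back from the F value of the test. Filled points passed the edgeR test at an adjusted p under 0.05. Dcstamp, Ocstamp, Atp6v0d2 and Siglec15 lie above 0, Cd9 and Adam8 below, and the Ocstamp points are fitted values that rest on 4 and 2 counts at R0D3.

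Levels of different genes were compared per kilobase of exon, as group means of CPM per kilobase. In Wt R0D3 the order was Sirpa at 464, Adam8 at 200, Cd9 at 149, Atp6v0d2 at 88.4 and Cd47 at 34.0, followed by Dcstamp at 0.613, Siglec15 at 0.363 and Ocstamp at 0.0319. In Wt R40D3 it was Atp6v0d2 at 366, Sirpa at 337, Dcstamp at 132, Cd9 at 84.3, Adam8 at 71.0, Siglec15 at 58.0, Ocstamp at 52.3 and Cd47 at 35.3. The R0D3 ranges of Dcstamp and Siglec15 overlapped. At R40D3 those of neighbours overlapped for Atp6v0d2 and Sirpa, Cd9 and Adam8, Adam8 and Siglec15, and Siglec15 and Ocstamp, so these pairs have no settled order. Among 12328 protein-coding genes tested, Dcstamp ranked 10415 from the top in Wt R0D3 and 284 in Wt R40D3, and Sirpa ranked 60 and 94. In LysM-cKO R40D3 Sirpa led at 363, followed by Atp6v0d2 at 250, Adam8 at 94.6, Cd9 at 86.7, Dcstamp at 85.5, Cd47 at 39.0, Siglec15 at 37.1 and Ocstamp at 33.4. There Adam8, Cd9 and Dcstamp overlapped in their ranges, as did Cd47, Siglec15 and Ocstamp, so the order within each of these trios is not settled.

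Dcstamp and Ocstamp kept a narrow ratio to each other at R40D3. The CPM of Dcstamp was between 1.71 and 1.96 times that of Ocstamp in the 4 R40D3 libraries, although the level of Dcstamp itself ranged from 155 to 411 CPM. Over the 8 culture libraries, the log2 CPM of the pair had a Pearson r of 0.999. Such correlations share the libraries and the step from R0D3 to R40D3, and are given as descriptions. A steady ratio to Dcstamp was not particular to Ocstamp. Ccr1 was at 289 and 402 CPM in Wt R40D3 and 149 and 275 CPM in LysM-cKO R40D3. Dcstamp was at 293 and 411 CPM and at 155 and 300 CPM there. The CPM of Dcstamp was between 4.67 and 5.71 times that of Siglec15 in the R40D3 libraries.

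The question that the deletion poses for these genes is whether their levels differ between LysM-cKO and Wt. At R40D3 Dcstamp, Ocstamp, Atp6v0d2 and Siglec15 were lower in LysM-cKO in both replicate numbers, and none of the 8 passed the test. Dcstamp was at 53.0% of the Wt level in replicate 1 and 73.1% in replicate 2. Ocstamp was at 55.5% and 70.1%, Atp6v0d2 at 61.1% and 73.9%, and Siglec15 at 59.1% and 67.7%. In all 4 the gap was wider in replicate 1. Of all genes tested, 34.3% were lower in LysM-cKO in both replicates.

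The fitted log2 differences at R40D3, LysM-cKO minus Wt, were -0.63 (SE 0.32) for Dcstamp, -0.65 (SE 0.24) for Ocstamp, -0.55 (SE 0.24) for Atp6v0d2 and -0.65 (SE 0.23) for Siglec15, with edgeR adjusted p between 0.648 and 0.656. With the replicate number as a block the adjusted p was 0.147, 0.0678, 0.228 and 0.0513 in that order, so none of the 4 passed. Ocstamp and Siglec15 had an unadjusted edgeR p under 0.05 (0.023 and 0.024), as did 1048 of the 14030 genes tested. DESeq2 called none of the 8. The edgeR test called 0.0143% of all genes here and 0.214% with the block. DESeq2 called 18 genes, a number equal to 0.128% of the 14030. Ocstamp, Atp6v0d2 and Siglec15 had no overlap between genotypes, where 18.9% of all genes were lower without overlap. The size of these differences depended on single libraries: without LysM-cKO R40D3 replicate 1 they were -0.21 for Dcstamp, -0.29 for Ocstamp, -0.24 for Atp6v0d2 and -0.33 for Siglec15. Without LysM-cKO R40D3 replicate 2 they were -1.20, -1.09, -0.92 and -1.03.

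The other 4 members did not share that direction. Adam8 was at 113% of Wt in replicate 1 and 161% in replicate 2 at R40D3, a log2 difference of 0.41 (SE 0.19, edgeR adjusted p = 0.648). Cd47 was at 109% and 112%, a difference of 0.15 (SE 0.07, adjusted p = 0.658). Both lay above Wt without overlap, as did 19.7% of all genes. Cd9 was at 94.1% and 111% and Sirpa at 96.6% and 119%, so their direction differed between replicates.

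At R0D3 none of the 8 passed the edgeR test of LysM-cKO against Wt, in a comparison that called 0.0143% of all genes. Adam8 had an unadjusted edgeR p of 0.048, and 620 of the 14030 genes tested had one under 0.05. DESeq2 called 7 genes, a number equal to 0.0499% of the 14030, and none of the 8. The fit with the block, which called 0.0214% of all genes, also called none of the 8. Adam8 was again the higher in LysM-cKO, at 114% and 160% of Wt (log2 difference 0.45, SE 0.19). Siglec15 was higher without overlap at 0.62 (SE 0.76), and 17.5% of all genes were higher without overlap. Dcstamp was lower without overlap at -0.80 (SE 0.75), against 14.8% of all genes. Leaving out Wt R0D3 replicate 1 gave -0.074, leaving out Wt R0D3 replicate 2 gave -1.26, and within replicate 2 LysM-cKO was at 97.8% of Wt. Both genes had few counts at R0D3. Atp6v0d2, the only one of the 4 rising genes that was well expressed at R0D3, differed there by -0.20 (SE 0.24) and at R40D3 by -0.55.

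The interaction, which tests whether the change from R0D3 to R40D3 differs between genotypes, called 0% of all genes and none of the 8. None of the 8 had an unadjusted p under 0.05, 248 of all genes did, and DESeq2 called none. The fitted difference of changes was 0.17 (SE 0.81) for Dcstamp, -0.35 (SE 0.34) for Atp6v0d2, -0.14 (SE 0.24) for Cd9, 0.14 (SE 0.10) for Cd47, -0.02 (SE 0.23) for Sirpa and -0.03 (SE 0.27) for Adam8. With the block, Siglec15 had an unadjusted p of 0.016 and an adjusted p of 0.811.

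**Figure D3:**
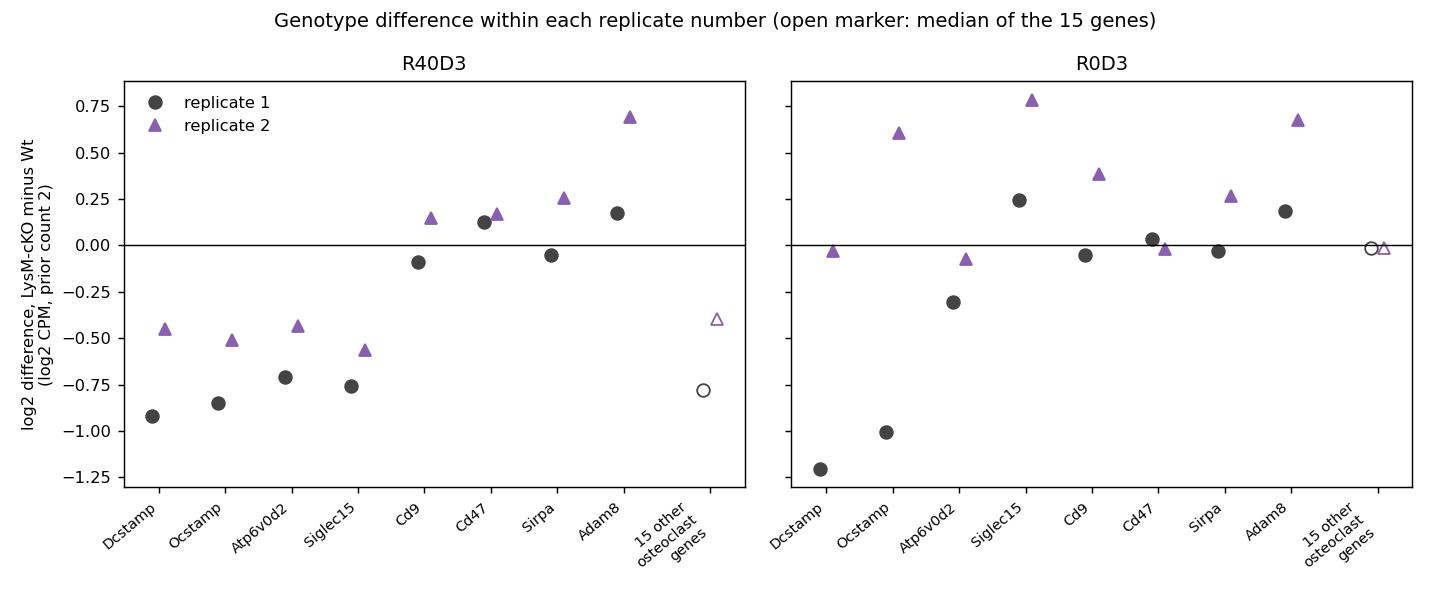
Log2 difference between LysM-cKO and Wt within each replicate number (vertical axis) for each fusion gene at R40D3 (left) and R0D3 (right). Circles are replicate 1 and triangles replicate 2, and open markers give the median of 15 other osteoclast genes. At R40D3 Dcstamp, Ocstamp, Atp6v0d2 and Siglec15 lie below 0 in both replicates, between -0.92 and -0.44.

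Other osteoclast genes also had lower values in the LysM-cKO R40D3 libraries. A list of 15 osteoclast genes for resorption, signalling and attachment, none of them a member, was examined beside the 8. Itgb3 is in this list and also in the list of 30 further fusion genes described below. All 15 were called higher at R40D3 in both genotypes, where 11.4% of all genes were in Wt and 6.99% in LysM-cKO. All 15 were lower in LysM-cKO R40D3 in both replicates, as were 34.3% of all genes. Their median difference was -0.78 in replicate 1 and -0.40 in replicate 2, beside medians of -0.80 and -0.48 for the 4 rising fusion genes and -0.02 and 0.00 for all genes tested. None of the 15 was called between genotypes at R40D3 by edgeR without the block or by DESeq2. Oscar and Car2 had an unadjusted p under 0.05, as did 1048 of the 14030 genes tested. These 2 were called with the block, in a fit that called 0.214% of all genes. The summed level of the 15 was 29471 and 42838 CPM in Wt R40D3 and 15430 and 28127 CPM in LysM-cKO R40D3, with the lowest value in the same library as for Dcstamp.

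Markers of other cells also differed between libraries. The 12 stromal and fibroblast markers summed to 1779 to 2258 CPM in the 4 Wt libraries, to 2164 and 2032 CPM in LysM-cKO replicate 1, and to 813 and 683 CPM in LysM-cKO replicate 2. The 9 neutrophil markers summed to 547 and 126 CPM in Wt R40D3 and to 199 and 89.0 CPM in LysM-cKO R40D3. The 10 macrophage markers summed to 27296 and 27928 CPM in Wt R40D3 and to 20833 and 18826 CPM in LysM-cKO R40D3. Most of that sum was Lyz2, the gene whose promoter the LysM-Cre strain uses, at 18949 and 20334 CPM in Wt R40D3 and 11773 and 11302 CPM in LysM-cKO R40D3. At R0D3 Lyz2 was also lower in LysM-cKO, at 15404 and 16856 CPM against 29996 and 35255 CPM in Wt. Without Lyz2 the other 9 summed to 8347 and 7594 CPM in Wt R40D3 and to 9060 and 7525 CPM in LysM-cKO R40D3, which overlap. Of the 10, 5 were higher and 5 lower in LysM-cKO R40D3 in both replicates, and none was called by edgeR with or without the block. Still, 6 of the 10 had an unadjusted edgeR p under 0.05 there, where 1048 of the 14030 genes tested did. Among the higher, Adgre1 was at 124% and 125% of Wt and Mertk at 130% and 124%. Among the lower, Fcgr1 was at 64.7 and 42.8 CPM in Wt R40D3 and at 36.5 and 29.9 CPM in LysM-cKO R40D3. The 10 lymphocyte markers summed to 20.9 and 17.5 CPM in Wt R40D3 and to 33.5 and 31.3 CPM in LysM-cKO R40D3, without overlap, and to at most 45.2 CPM in any culture library. Ighm, an immunoglobulin heavy chain gene that made up most of these sums, was at 184% and 195% of Wt within the replicates (edgeR adjusted p = 0.27, and with the block 0.022). Trac was lower in LysM-cKO R40D3 than in Wt R40D3 in both replicates. The 7 dendritic cell markers summed to 35.6 and 35.5 CPM in Wt R40D3 and to 25.9 and 31.5 CPM in LysM-cKO R40D3, and to at most 115 CPM in any culture library. The part of these cells in the differences of the fusion genes was not tested.

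Of the known partners of the members, 5 of the 7 pump subunit genes rose in Wt and 1 fell, while only Ptgfrn passed the test among the 11 others. Of 18 partner genes, 6 were called higher and 1 lower in Wt, and 4 higher and 1 lower in LysM-cKO. The shares over all genes were 11.4% higher and 5.52% lower in Wt, and 6.99% and 3.15% in LysM-cKO. With the block, 7 partners were called higher in each genotype, and 2 lower in Wt and 1 in LysM-cKO. Those fits called 28.3% of all genes in Wt and 21.3% in LysM-cKO, in either direction. The calls that the block added were Itga9 (higher) and Igsf8 (lower) in Wt, and Atp6v0c, Atp6v0e and Syk (all higher) in LysM-cKO. The median log2 change was 0.18 in Wt and 0.22 in LysM-cKO, beside 0.01 over all genes tested in each. No partner was called between genotypes in either culture by edgeR, with or without the block, or by DESeq2. In each culture 1 partner had an unadjusted p under 0.05, where 1048 of the 14030 genes tested did at R40D3 and 620 at R0D3.

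Among the pump subunits, the paralogue Atp6v0d1 did not follow Atp6v0d2. Atp6v0d1 was at 209 and 214 CPM in Wt R0D3 and at 233 and 214 CPM in Wt R40D3, a log2 difference of 0.08 (SE 0.09, edgeR adjusted p = 0.62). The ratio of Atp6v0d2 to Atp6v0d1 was between 0.883 and 1.32 in the R0D3 libraries and between 2.37 and 5.22 in the R40D3 libraries. Within R40D3 that ratio was 3.73 and 5.22 in the Wt libraries, above the 2.37 and 3.30 of the LysM-cKO ones.

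The a subunits also parted. Tcirg1, which encodes the a3 subunit of the osteoclast pump, rose on the log2 scale by 1.20 (SE 0.18, edgeR adjusted p = 0.0051) in Wt and 0.90 (SE 0.18, adjusted p = 0.023) in LysM-cKO. Atp6v0a1, which encodes the a1 subunit, changed by -0.77 (SE 0.11, adjusted p = 0.0043) in Wt and -0.69 (SE 0.11, adjusted p = 0.010) in LysM-cKO. Atp6v1h rose by 1.47 and 1.05 and Atp6v0b by 1.05 and 0.78, called in both genotypes. Atp6v0c rose in Wt by 1.09 (adjusted p = 0.012), and Atp6v0e rose as well (adjusted p = 0.016). In LysM-cKO their values were 0.77 (adjusted p = 0.059, and 0.0020 with the block) and 0.72 (adjusted p = 0.10, and 0.0032 with the block). Reads that these subunits share with near-identical copies elsewhere were not examined.

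**Figure D4:**
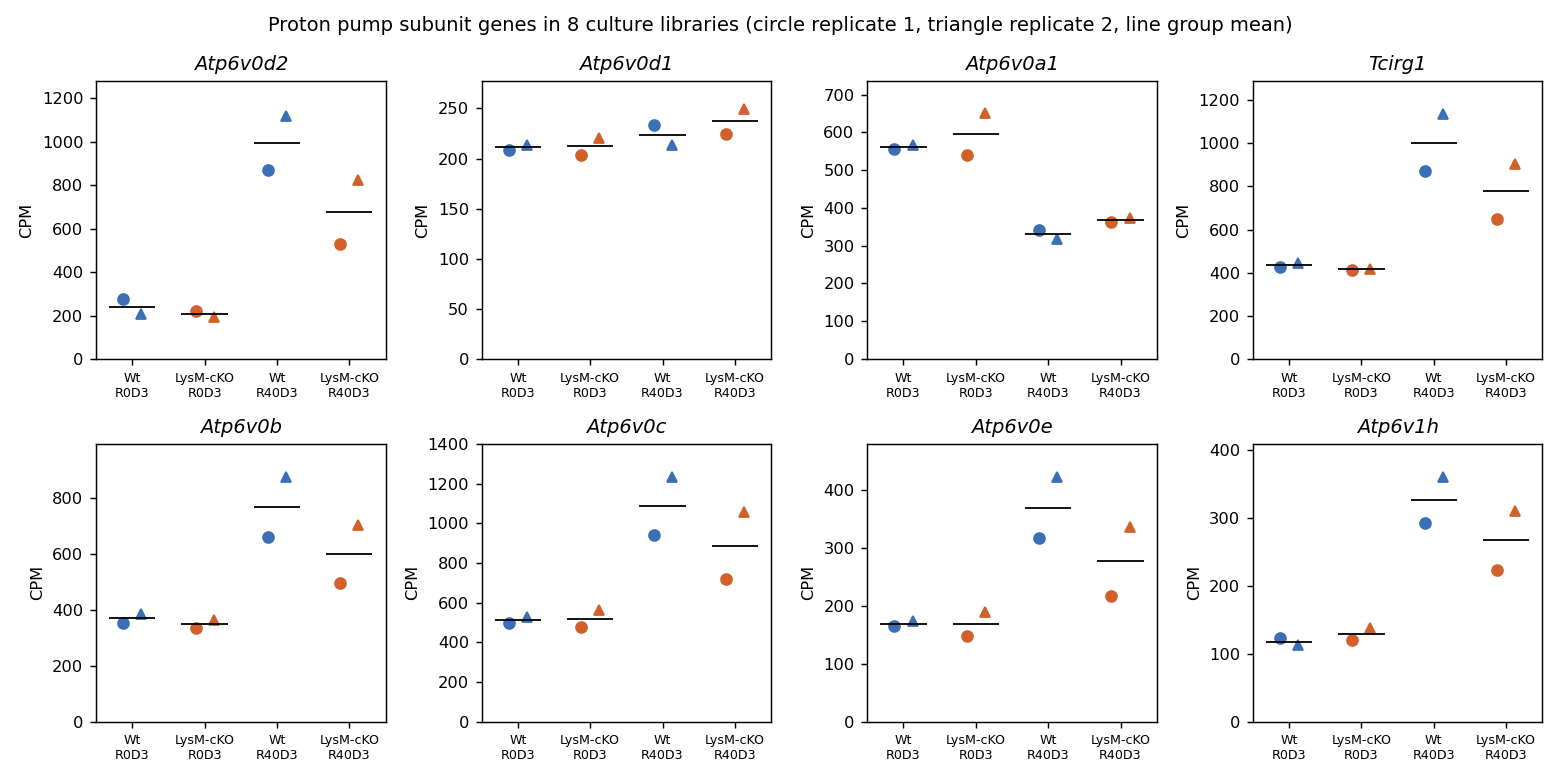
Level in CPM (vertical axes, linear and starting at 0) of proton pump subunit genes in the 4 culture groups, with circles for replicate 1, triangles for replicate 2 and lines for group means. Atp6v0d2 and Tcirg1 are higher at R40D3, Atp6v0a1 is lower, and Atp6v0d1 stays between 204 and 250 CPM.

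The signalling partners of Siglec15 did not pass the test without the block. Tyrobp, which encodes DAP12, had a log2 difference of -0.14 (SE 0.10) in Wt and -0.13 in LysM-cKO, Hcst, which encodes DAP10, of -0.10 and 0.00, and the kinase gene Syk of 0.17 and 0.26 (adjusted p in LysM-cKO 0.18, and 0.029 with the block). The phosphatase genes that SIRPα recruits were also not called, with Ptpn6 at 0.20 in both genotypes and Ptpn11 at 0.11 and 0.01. Thbs1, a secreted ligand of CD47, was as low as 239 CPM among the 8 libraries and was not called, with its lowest R0D3 and lowest R40D3 value in LysM-cKO replicate 2. Of the immunoglobulin-type partners of CD9, Ptgfrn rose by 1.14 (SE 0.11, edgeR adjusted p = 0.0011) in Wt and 0.86 (SE 0.11, adjusted p = 0.0053) in LysM-cKO, opposite to Cd9 itself, and Igsf8 was at -0.23 in Wt (adjusted p = 0.16, and with the block 0.031) and at -0.13 in LysM-cKO. The integrin gene Itga9 was at 0.44 (adjusted p = 0.47, and 0.022 with the block) and 0.24. Itgb1 (-0.15 and -0.24) and Creb3 (0.13 in both), a transcription factor gene linked to DC-STAMP, were not called with or without the block.

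A list of 30 further genes linked to fusion of macrophages or osteoclasts had 27 members tested. In Wt 10 were called higher and 5 lower, in LysM-cKO 8 higher and 5 lower, with a median log2 change of 0.04 in each. Of all genes tested, 11.4% were called higher and 5.52% lower in Wt, and 6.99% and 3.15% in LysM-cKO. None of the 27 was called between genotypes by edgeR, with or without the block, or by DESeq2. In each culture 3 had an unadjusted p under 0.05, where 1048 of the 14030 genes tested did at R40D3 and 620 at R0D3. Cd36, a scavenger receptor gene, fell by 2.52 in Wt and by 2.30 in LysM-cKO on the log2 scale. Snx10, a sorting nexin gene, rose by 3.52 and 2.89, Cd200, a membrane ligand gene, by 4.58 and 4.16, Itgb3, the gene of the osteoclast vitronectin receptor's β3 chain, by 5.72 and 4.94, and Myo10, an unconventional myosin gene, by 1.71 and 1.32.

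Of 10 transcription regulators linked to osteoclast formation and fusion, 4 were called higher and 4 lower in Wt, and 4 higher and 2 lower in LysM-cKO. The shares over all genes were 11.4% higher and 5.52% lower in Wt, and 6.99% and 3.15% in LysM-cKO. Nfatc1, the main RANKL-induced transcription factor gene of osteoclasts, rose on the log2 scale by 2.42 (SE 0.16) in Wt and 2.06 (SE 0.16) in LysM-cKO. Prdm1, which encodes the repressor Blimp1, rose by 2.09 and 2.07, and Sbno2 by 0.84 and 0.53. Bcl6, a repressor gene of osteoclast genes, fell by 1.09 and by 1.17. None of the 10 was called between genotypes by edgeR, with or without the block, or by DESeq2. At R40D3 2 had an unadjusted p under 0.05, as did 1048 of the 14030 genes tested.

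The genes most like each member were sought by Pearson r of log2 CPM over the 8 libraries, among 10038 genes with at least 5 CPM in their highest group. For Dcstamp these were Steap4, Ocstamp and Klra17, and for Ocstamp they were Dcstamp, Slc9b2 and Klra17, with r of 0.998 or 0.999. Steap4, a metalloreductase gene, was at 0.0606 to 0.291 CPM at R0D3, at 261 and 374 CPM in Wt R40D3 and at 94.7 and 194 CPM in LysM-cKO R40D3. For Siglec15 they were Rufy4, Plxna4 and Kbtbd11 (r = 0.999), and for Atp6v0d2 they were Stk11ip, Crot and the chemokine receptor gene Ccr1 (r = 0.997 or 0.998).

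The falling members had other neighbours. Cd9 was most like Rgs1, Ppfia4 and Lmf2 (r between 0.988 and 0.992), and Sirpa most like Cd180, Rnh1 and Pkib (r between 0.992 and 0.994). Adam8 was most like Tm7sf3, Bcl6 and Eid1 (r between 0.996 and 0.997). Cd47, which moved least, had the weakest likeness, with r of 0.942 to Msantd4 and 0.940 to Nfkb1. Rgs1, a gene of G protein signalling, was at 80.2 to 159 CPM at R0D3 and 12.2 to 26.7 CPM at R40D3, with LysM-cKO replicate 2 the highest library in each, as for Cd9.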

How the data were processed

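RNA of 8 marrow culture libraries and 4 forelimb libraries was sequenced. The authors deposited raw counts per gene. Per the submitters' processing notes, FastQC 0.11.2, Trimmomatic 0.36, HISAT2 2.1.0, DESeq2 1.12.4 and GRCm38 were used. The counting tool, annotation and strand setting are not given in the sources used here.

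Counts were analysed in R 4.3.3 with edgeR 4.0.16 (TMM scaling, filterByExpr, quasi-likelihood test, all 8 culture libraries in 1 fit with 4 group means, two-sided, Benjamini-Hochberg adjustment over the 14030 genes tested, calls at an adjusted p under 0.05). The steps were tested on simulated data. DESeq2 1.42.0 was an alternative, with other size factors, no filter on low counts, edgeR's older quasi-likelihood method, a replicate block, the compared libraries alone, and each library left out. Log2 CPM used a prior count of 2, and forelimb CPM used the raw library totals. Each SE is the size of the edgeR log2 difference divided by the square root of the F value of its test. It is thus not a separate estimate of spread. The wider lists were named by the smallest p in Wt, at most 5 a list, and all 18 partners were named. A few markers (Acp5, Calcr, Atp6v1b2, Lyz2, Cd3e, Trac, Oscar, Car2, Adgre1, Mertk, Fcgr1, Ighm) were named after their values were seen. The members and lists were chosen with earlier results of these data known. Gene symbols came from GENCODE and matched 99.5% of the identifiers. A few items that these rules select are not reported here.

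Same-numbered culture libraries deviated together from their group means (r between 0.343 and 0.609 over the 6 pairs of groups), so the numbers pair the samples. This pairing comes from the data and the label numbers. No 2 libraries of a group agreed within sampling noise. Intervals for ratios of counts are 95% exact and cover counting error only.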

Additional observations from a re-analysis of the deposited data

How the results depend on the processing

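No member crossed the test's threshold between genotypes or in the interaction under any alternative run. Of the 6 members called from R0D3 to R40D3, Dcstamp, Ocstamp, Siglec15 and Adam8 stayed called under all 15 alternatives in both genotypes. The replicate block raised the genes called from 2367 to 3977 in Wt and from 1422 to 2983 in LysM-cKO, and from 2 to 30 between genotypes at R40D3. Apart from Sirpa, the block changed no call of a member. With only the 4 libraries compared, 533 genes were called in LysM-cKO and 0 between genotypes in each culture; that fit was not run for the interaction and gave no value for Ocstamp and Siglec15 at R0D3. DESeq2 called 18 genes between genotypes at R40D3 and 7 at R0D3, and library size alone called 0 at R40D3. Leaving out 1 library gave 689 to 2425 genes called in Wt, with 689 without Wt R40D3 replicate 2, 799 and 803 without Wt R0D3 replicates 1 and 2. In LysM-cKO it gave 399 to 1317, with 399 and 754 without LysM-cKO R0D3 replicates 2 and 1, 475 without LysM-cKO R40D3 replicate 2, and 879 and 877 without Wt R0D3 replicates 1 and 2. Between genotypes it gave 0 at R40D3 and 0 to 1 at R0D3.

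Small differences changed sign. At R0D3 Cd47 (0.01) was -0.0096 with no filter and -0.0052 with only the 4 libraries. Over the libraries left out, the R40D3 genotype differences ranged from -0.19 to 0.24 for Cd9 and from -0.025 to 0.24 for Sirpa. The R0D3 ones ranged from -0.40 to 0.026 for Atp6v0d2, from -0.039 to 0.35 for Cd9, from -0.042 to 0.025 for Cd47 and from -0.079 to 0.28 for Sirpa. The interaction ranged from -0.56 to 0.63 for Dcstamp, from -0.14 to 1.21 for Ocstamp, from -0.35 to 0.078 for Cd9, from -0.17 to 0.19 for Sirpa and from -0.22 to 0.22 for Adam8. That of Sirpa (-0.02) was 0.0032 with library size alone and 0.0084 with no filter. Without Wt R0D3 replicate 1 no fold of Ocstamp against Wt R0D3 can be given, as that group has no count left. The cause was not tested. Counts of at most 55 per group at R0D3 limit the folds of Dcstamp, Ocstamp and Siglec15.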

Other observations

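The members were also counted in forelimbs of E12.5 embryos, with 2 Wt and 2 Impdh2 Prx-cKO libraries of 28892215 to 69466572 counts. Prx-cKO is a deletion in limb mesenchyme, so myeloid cells are not its target. Dcstamp had 0 counts in all 4 libraries, which does not exclude a level too low to be counted. Ocstamp, Atp6v0d2 and Siglec15 were at 0 to 0.415 CPM, with at most 17 counts in a library. The genes whose level rose from R0D3 to R40D3 were thus at or near the floor in this tissue.

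The other 4 were measurable in forelimbs. Cd9, the tetraspanin gene, had 19.5 and 18.5 CPM in Wt replicates 1 and 2, with 18.7 and 16.5 in the Prx-cKO ones. Cd47 had 30.0 CPM in both Wt libraries, with 21.9 and 21.1 after the deletion. Adam8 had 12.3 and 8.88 CPM in Wt, with 10.2 and 9.38 in Prx-cKO limbs. Sirpa varied most between replicates, with 7.52 and 34.6 CPM for Wt against 23.1 and 11.3 for Prx-cKO. No test was made of these forelimb levels, which come from tables apart from those of the cultures.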
